A study of Homo sapiens with 36 samples.

Results

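Jurkat cells, a human line derived from a T-cell leukaemia, received a guide RNA against RELA or a control guide, and their transcriptomes were compared on day 5 after transduction, the first of 3 harvests. The comparison used every library of the guides sgRELA and sgControl taken on that day, 12 of the 36 libraries in the series. Both groups carried dCas9-VP64, a nuclease-dead Cas9 joined to the VP64 activation domain, which raises transcription near the site its guide pairs with, from a stable line that the labels mark as mCherry+. The guide came from a pXPR-based lentiviral vector, and puromycin was applied for 3 days after transduction, so the controls shared the activator, the virus and the selection. The labels name 1 guide for RELA and give the control guide as non-targeting, so the effect of this guide and the effect of more RELA cannot be told apart. No guide sequence is printed here, and no untransduced cells were analysed here. Transductions were made in triplicate per guide, and 2 RamDA-seq libraries were made from each RNA, each from 100 pg of total RNA. RamDA-seq primes reverse transcription along whole transcripts, with or without a poly(A) tail. The 2 libraries of an RNA were added, which left 3 RNA samples of sgRELA against 3 of sgControl.

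RELA encodes p65, a subunit of NF-kB. NF-kB proteins act as dimers of RELA, RELB, REL and the products of NFKB1 and NFKB2. In resting cells the dimers are held in the cytoplasm by inhibitors such as IkBa, the product of NFKBIA. Once the IKK kinases mark these inhibitors for destruction, the dimers enter the nucleus, bind kB sites and raise genes of inflammation, survival and antigen presentation, together with NFKBIA and TNFAIP3, which shut the pathway down again. In T cells the pathway is switched on through the antigen receptor and receptors of the TNF family.

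The 6 sgControl libraries of day 5 held 10111658 to 12252438 counts each, and the 6 sgRELA libraries 11648524 to 16124473. With both libraries added, the RNA samples held 21943451 to 23502763 and 24676123 to 29503934 counts, so every sgRELA sample was the deeper. Between 25398 and 27657 genes had a count in the libraries of sgControl and between 27336 and 28127 in those of sgRELA. Mitochondrial genes took 6.38% to 10.9% and 6.9% to 8.25% of the counts. T-cell markers were present in all 6 RNA samples: the 12 genes summed to 2370 to 2670 CPM in sgControl and 2560 to 2660 CPM in sgRELA. Of the 12, 0 were called, beside 0.138% of all tested genes. CPM scales counts to a common library size, here with TMM factors. Genes are named as called where edgeR's quasi-likelihood F test gave an adjusted p under 0.05. By principal components, sgControl samples scored between -35 and -5.88 on the leading axis (24.9% of the variance among these 6 samples) and sgRELA samples between 14.5 and 23.6. Depth differed between the guides, and its part in the results was not tested beyond that scaling.

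Of 27553 genes tested, 38 were called on day 5, which is 0.138% of them. Higher in sgRELA were 28 genes (0.102%) and lower were 10 (0.0363%), and 29 of the 38 had changed by more than 1 on the log2 scale. Unadjusted p was under 0.05 for 1641 genes. The median log2 fold change of all tested genes was -0.0025 and 49.6% of them lay above 0. The first library of each RNA alone gave 15 calls and the second alone gave 22, 15 and 19 of which were among the 38. In all 38 called genes the 3 sgRELA samples did not overlap the 3 sgControl samples, a state that 11% of all tested genes were in. In 32 of the 38 the 6 libraries of one guide did not overlap the 6 of the other, against 0.348% of all tested genes. These shares rest on the samples that chose the genes and are given as a description.

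**Figure D1:**
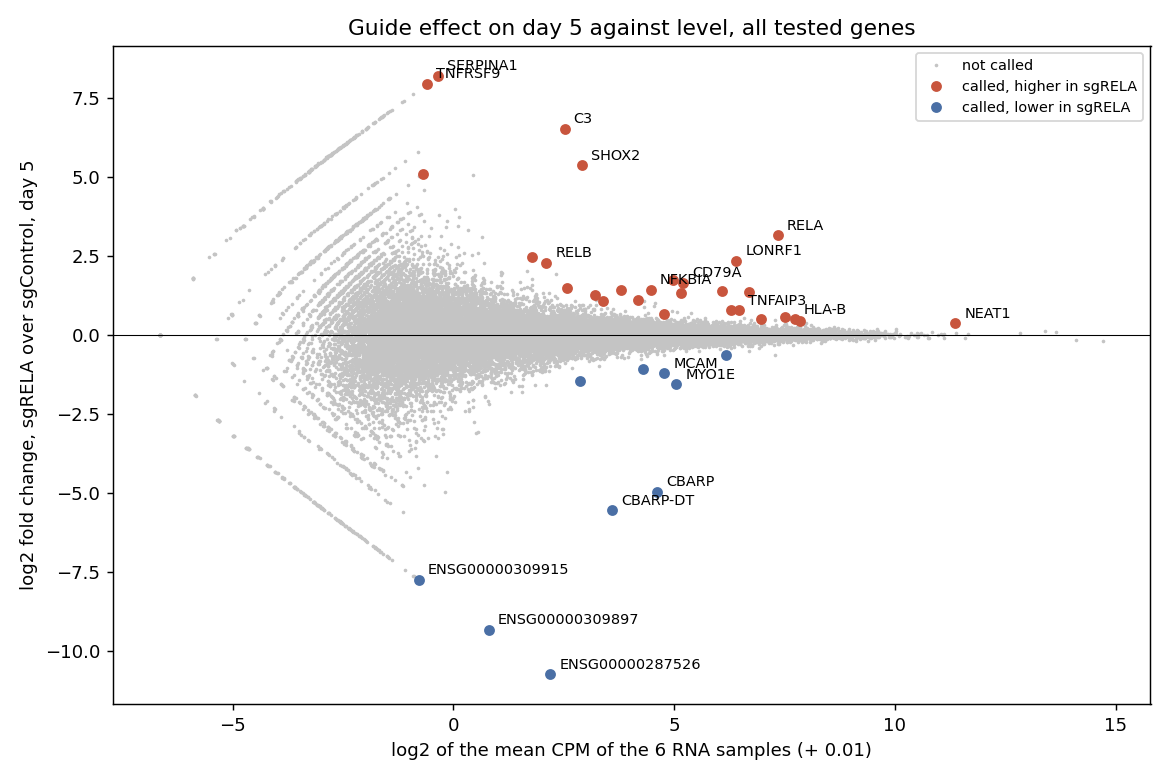
Log2 fold change of sgRELA over sgControl on day 5 (vertical axis) against the log2 mean CPM of the 6 RNA samples plus 0.01 (horizontal axis), one point per tested gene, with called genes in red (higher) or blue (lower). The 27553 genes centre on -0.0025, and the 38 called genes include high-count genes with small changes such as NEAT1 (0.36) as well as CBARP (-4.97) and CBARP-DT (-5.55). The diagonal streaks at the outer left are genes with no count in one guide, whose fitted fold change depends on a prior count and gives no size.

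The targeted gene was raised in every sgRELA sample. RELA (ENSG00000173039, chr11:65653596-65663094, minus strand, GENCODE v29 on GRCh38, protein coding) had 31.2, 39.3 and 29.4 CPM in the 3 sgControl samples. It had 318.5, 263.1 and 299.7 CPM in the 3 sgRELA samples. The lowest sgRELA sample was several times above the highest sgControl sample, and among single libraries the ranges of 23.5 to 40.6 CPM and 256.7 to 346.2 CPM did not overlap either. The means were 33.3 ± 5.28 and 293.7 ± 28.2 CPM (SD, n = 3 each), a ratio of 8.83. The log2 fold change was 3.14 ± 0.14 (SE), with an adjusted p of 1.08e-15 by edgeR. The exact two-sided permutation test of log2(CPM + 1) gave p = 0.1, the smallest that 3 against 3 samples allow. Whether the 3 samples of a guide came from separate cultures rests on the labels' wording. The edgeR p-values set a difference against the spread between RNA samples within all 6 groups of guide and day. The permutation test used the 6 samples of day 5 alone.

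Of the other NF-kB subunits, RELB rose and the rest did not pass the test. RELB encodes the transactivating partner of the p52 protein in the non-canonical branch. It had 1.32, 1.28 and 1.77 CPM in sgControl and 6.77, 8.64 and 5.88 CPM in sgRELA. The groups did not overlap, and the log2 fold change was 2.28 ± 0.39 (SE) with an adjusted p of 0.0027. NFKB1, which encodes p105 and its product p50, had 55.5 CPM in sgControl and 69.8 in sgRELA on average, a log2 difference of 0.33 ± 0.13 with an adjusted p of 0.732. REL differed by 0.23 ± 0.10 (adjusted p = 0.798) and NFKB2, which encodes p100 and its product p52, by 0.13 ± 0.20 (adjusted p = 0.997). Levels were also divided by the merged length of all GENCODE v29 exons of a gene. That length was 5464 bases for RELA, 13170 for REL and 6257 for NFKB1. Per kilobase so defined, RELA was below REL and NFKB1 in sgControl, with 6.09 ± 0.97 CPM per kb against 7.48 ± 0.90 and 8.87 ± 0.27 (SD, n = 3). In sgRELA it had 53.8 ± 5.16 CPM per kb, against 8.78 ± 0.24 for REL, 11.2 ± 1.09 for NFKB1, 3.90 ± 0.08 for NFKB2 and 2.34 ± 0.46 for RELB. RELA thus made up 21.1% to 25.3% of the length-scaled RNA of the 5 subunit genes in sgControl and 65.3% to 69.2% in sgRELA, with no overlap between guides. These shares and the order of the genes depend on the lengths used, and other lengths were not tested.

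NFKBIA, the gene of the inhibitor IkBa, rose with RELA. It had 10.4, 14.1 and 11.7 CPM in sgControl and 33.7, 33.7 and 29.1 CPM in sgRELA. Each sgRELA sample was above each sgControl sample, and the log2 fold change was 1.42 ± 0.19 (SE, adjusted p = 8.27e-05). The other tested inhibitors and IKK subunits did not pass the test. NFKBIE differed by 0.31 ± 0.28 and NFKBIB by 0.20 ± 0.21 on the log2 scale, while NFKBIZ, which encodes an atypical nuclear IkB, stood at -1.24 ± 0.67. For the IKK genes the differences were 0.06 ± 0.10 for IKBKB, -0.02 ± 0.13 for CHUK and -0.17 ± 0.24 for IKBKG. In the list of 17 subunit, inhibitor and kinase genes, all of them tested, 3 were called higher and 0 lower, beside 0.102% and 0.0363% of all tested genes. One of the 3 is RELA, the target of the guide, and the others are NFKBIA and RELB. Of the list 12 lay above 0 and the median was 0.14.

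TNFAIP3 encodes the ubiquitin-editing enzyme A20. It was the called member of the 21 tested feedback and ubiquitin regulators, beside 0.138% of all tested genes called. It had 56.8, 71.6 and 66.5 CPM in sgControl and 105.3, 116.3 and 111.8 CPM in sgRELA. The guides did not overlap, and the log2 fold change was 0.77 ± 0.13 (SE, adjusted p = 0.0025). Of this list 10 members lay above 0 and 11 below, with a median of -0.011, close to that of all genes. OPTN, which encodes optineurin, an autophagy receptor that binds ubiquitin chains, was not on the list and was called higher. Its samples were at 17, 10.1 and 16.1 CPM in sgControl and at 49.4, 50.9 and 44.4 CPM in sgRELA, apart without overlap. The log2 fold change of OPTN was 1.74 ± 0.20 (SE, adjusted p = 3.87e-06).

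**Figure D2:**
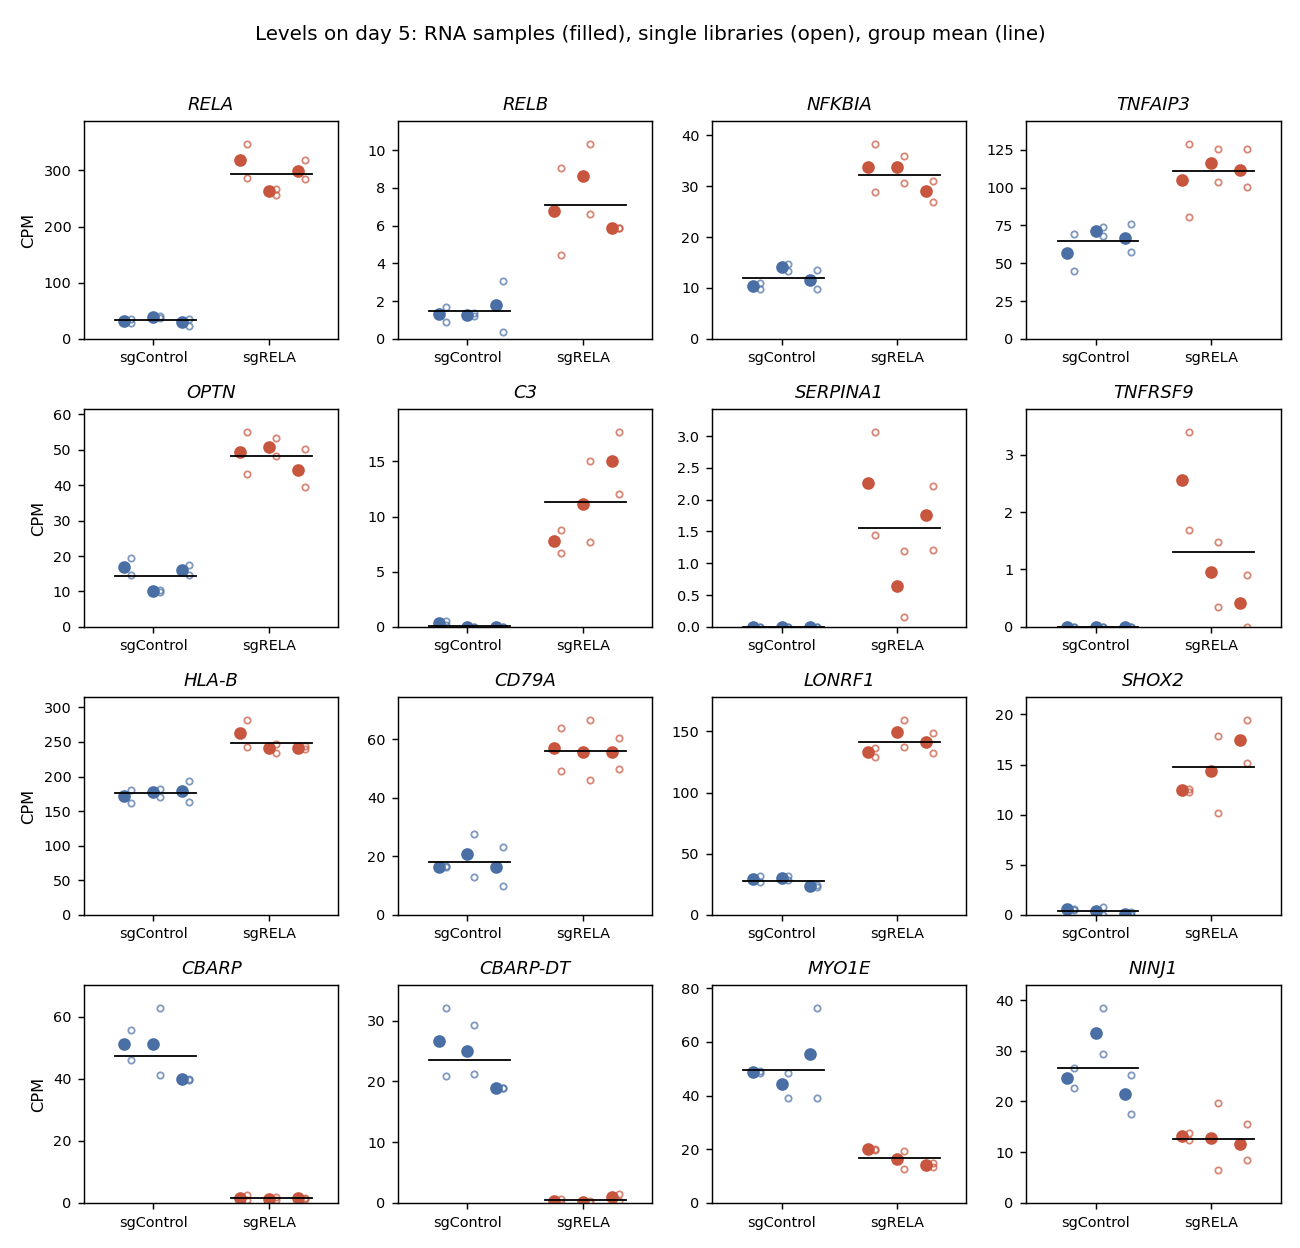
CPM of 16 called genes on day 5 in sgControl (blue) and sgRELA (red), with 1 filled point for each RNA sample, open points for its 2 libraries and a line at the mean of 3. The filled points of the guides do not overlap in any panel, while in TNFRSF9 one sgRELA library was at 0 like all 6 sgControl libraries. Single libraries also overlap in NINJ1, where the highest of sgRELA (19.7 CPM) lay above the lowest of sgControl (17.6 CPM).

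The regions before the starts of these genes were searched for kB sites. Windows came from RefSeq (GRCh38.p14) and held the 250 bases before each annotated start. A kB consensus match on either strand, overlapping matches included, was present in at least 1 window of 10 of the 18 called-higher genes with a window (55.6%), in 0 of 7 called-lower genes, in 14.8% of 13261 tested genes and in 11.8% of all 27305 genes with a window. A gene with several starts had more windows to match. The 10 genes were RNPEP, EPHX1, OPTN, NFKBIA, HLA-B, TNFAIP3, PTPN2, ELF3-AS1, TNFRSF9 and ACSL6, and neither of the 2 RELA windows held one. A match is a run of letters and not a measured binding site. The stretches below come from one window of the targeted gene, from 4 genes that rose and from the coding gene that fell most, written 5′ to 3′ on the gene's strand with matches in capitals. Bases within exons of coding genes in GENCODE v29 were left out, except for the short excerpts around the matches of TNFAIP3 and TNFRSF9.
RELA, chr11:65663095-65663166, minus strand, no match: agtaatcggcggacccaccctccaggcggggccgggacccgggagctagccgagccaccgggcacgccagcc
NFKBIA, chr14:35404750-35404999, minus strand: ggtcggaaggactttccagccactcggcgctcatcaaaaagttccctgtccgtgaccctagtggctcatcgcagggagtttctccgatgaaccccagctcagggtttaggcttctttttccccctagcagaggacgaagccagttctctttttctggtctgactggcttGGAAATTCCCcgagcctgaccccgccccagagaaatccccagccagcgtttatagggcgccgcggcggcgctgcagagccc
TNFAIP3, chr6:137867187-137867216, plus strand: actttGGAAAGTCCCgtGGAAATCCCCggg
TNFRSF9, chr1:7940894-7940923, minus strand: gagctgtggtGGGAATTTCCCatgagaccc
HLA-B, chr6:31357189-31357429, minus strand: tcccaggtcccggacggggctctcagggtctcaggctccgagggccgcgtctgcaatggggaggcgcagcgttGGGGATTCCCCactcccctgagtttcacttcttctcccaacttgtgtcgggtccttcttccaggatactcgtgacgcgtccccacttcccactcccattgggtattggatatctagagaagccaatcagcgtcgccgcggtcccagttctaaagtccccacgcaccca
CBARP, chr19:1238028-1238255, minus strand, no match: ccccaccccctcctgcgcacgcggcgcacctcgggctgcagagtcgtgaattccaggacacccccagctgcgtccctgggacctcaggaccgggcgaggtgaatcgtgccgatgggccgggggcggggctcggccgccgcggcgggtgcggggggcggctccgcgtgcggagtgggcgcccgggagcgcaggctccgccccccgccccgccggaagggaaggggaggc
NFKBIA held 1 match, GGAAATTCCC, which begins 81 bases before the start. TNFAIP3 held 2, GGAAAGTCCC and GGAAATCCCC, at 67 and 55 bases before the start. In TNFRSF9 and in HLA-B, 2 overlapping matches one base apart form a single run of capitals.

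Among 73 genes listed as NF-kB targets, 51 were tested. Of those, 7 were called higher and 1 lower, beside 0.102% and 0.0363% of all tested genes, 34 lay above 0 and the median was 0.21 on the log2 scale, beside -0.0025 for all tested genes. The 22 others had too few counts for a test. The list was drawn up with results of these data known, so its direction is no independent evidence. Apart from NFKBIA, RELB and TNFAIP3, its called members were C3, SERPINA1, TNFRSF9 and HLA-B, which rose, and NINJ1, which fell.

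C3 and SERPINA1 encode plasma proteins made chiefly by the liver, complement component C3 and the elastase inhibitor alpha-1 antitrypsin. C3 had 0.35, 0 and 0 CPM in sgControl and 7.78, 11.2 and 15.1 CPM in sgRELA. The RNA of C3 was thus close to absent in sgControl and detected in every sgRELA sample, with a fitted log2 fold change of 6.53 ± 0.75 (SE, adjusted p = 3.01e-06). All 8 sgControl counts of C3 came from replicate 1. Without that sample sgControl stood at 0 and the fitted value became 11.07, which gives no size, while the other fits that left out 1 sample gave 5.95 to 6.74. SERPINA1 had 0 counts in the 3 sgControl samples together and 123 in the sgRELA samples, where it stood at 2.27, 0.64 and 1.75 CPM. Against a floor of 3 counts over the sgControl group it was at least 35.3-fold higher, with an adjusted p of 0.0049 by edgeR. The call of SERPINA1 was lost with the first libraries alone and with the second libraries alone. On day 6 it had 24 counts in sgControl and 194 in sgRELA and was not called (adjusted p = 0.318 by edgeR). On day 7 it had 0 and 95 counts and was called (adjusted p = 0.0084 by edgeR). Of the 18 acute-phase genes, only 7 passed the count filter. These 2 calls, beside 0.138% of all tested genes called, thus do not describe the whole list.

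TNFRSF9 encodes the costimulatory receptor 4-1BB. It was the called member of 36 tested TNF superfamily genes, beside 0.138% of all tested genes called. It had 0 counts in the sgControl samples and 99 in the sgRELA samples, at 2.55, 0.96 and 0.41 CPM. The samples of sgRELA spread widely, and the gene was at least 28.4-fold higher than the floor of 3 counts over the sgControl group (adjusted p = 0.022). Its call was lost, with adjusted p up to 0.139, without sgControl replicate 1, 2 or 3 or without sgRELA replicate 1. In this family 21 members lay above 0 and 15 below, with a median of 0.11.

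HLA-B, a classical MHC class I heavy chain that presents peptides, rose by a small amount. HLA-B had 172.2, 177.3 and 178.5 CPM in sgControl and 263.2, 241.5 and 241.7 CPM in sgRELA. No sgRELA sample reached down to sgControl, and the log2 fold change was 0.50 ± 0.08 (SE, adjusted p = 0.0012). HLA-C, at -0.18 ± 0.13, and B2M, the light chain, at 0.06 ± 0.10, did not pass the test and were chosen after their values were seen. Of 21 tested genes of MHC class I and antigen processing, 18 lay above 0, with a median of 0.15. The class I genes resemble each other in sequence, and the GENCODE v29 model of HLA-B reaches into the region of HLA-C. How reads with several matches were counted is not given in the sources used here, so the split between these genes is uncertain.

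CD79A, which encodes the Ig-alpha chain of the B-cell receptor, was among the strongest calls. It had 16.5, 20.8 and 16.4 CPM in sgControl and 56.9, 55.8 and 55.6 CPM in sgRELA. The sgRELA samples lay within a narrow range well above sgControl, and the log2 fold change was 1.65 ± 0.15 (SE, adjusted p = 4.26e-08). The 6 B-cell markers summed to 16.7 to 21.3 CPM in sgControl and 56.1 to 57 CPM in sgRELA, nearly all of it CD79A. MS4A1, PAX5 and CD22 had 0 to 6 counts in any RNA sample of either guide, and CD79B 0 to 16. In bulk RNA, a change in the number of cells of a type and a change in RNA per cell cannot be told apart, and the part of other cells in the CD79A result was not tested. Myeloid markers summed to 1.27 to 3.32 CPM in sgControl and 2.76 to 3.37 in sgRELA, and erythroid markers to at most 0.0914 CPM. Epithelial markers were at 0.183 to 1.58 and 0.365 to 1.68 CPM with EPCAM at 0, and fibroblast markers at 4.66 to 6.05 and 4.08 to 9.22 CPM, nearly all of it COL1A1.

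Several genes outside the NF-kB lists rose as clearly. LONRF1, which encodes a protein with RING finger and LON domains, was second to RELA by p. It had 29.4, 30.2 and 23.7 CPM in sgControl and 133.5, 149.7 and 141.0 CPM in sgRELA. The groups were far apart, and the log2 fold change was 2.35 ± 0.13 (SE, adjusted p = 1.19e-13). SHOX2, a homeobox transcription factor gene of limb and heart development, had 0.57, 0.37 and 0.13 CPM in sgControl and 12.5, 14.4 and 17.5 CPM in sgRELA. SHOX2 was barely detected without the RELA guide and present in every sgRELA sample, and its fitted log2 difference was 5.36 ± 0.56 (SE, adjusted p = 3.78e-07). EPHX1, which encodes microsomal epoxide hydrolase, had 22.4, 21.0 and 18.4 CPM in sgControl and 48.6, 45.1 and 59.6 CPM in sgRELA. EPHX1 samples did not overlap, and the log2 fold change was 1.31 ± 0.15 (SE, adjusted p = 3.45e-06). CIT, which encodes citron kinase, a factor in cytokinesis, had 151.9, 138.2 and 157.3 CPM in sgControl and 220.2, 226.5 and 206.7 CPM in sgRELA. CIT was higher in each sgRELA sample, by 0.55 ± 0.09 on the log2 scale (adjusted p = 0.0027).

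**Figure D3:**
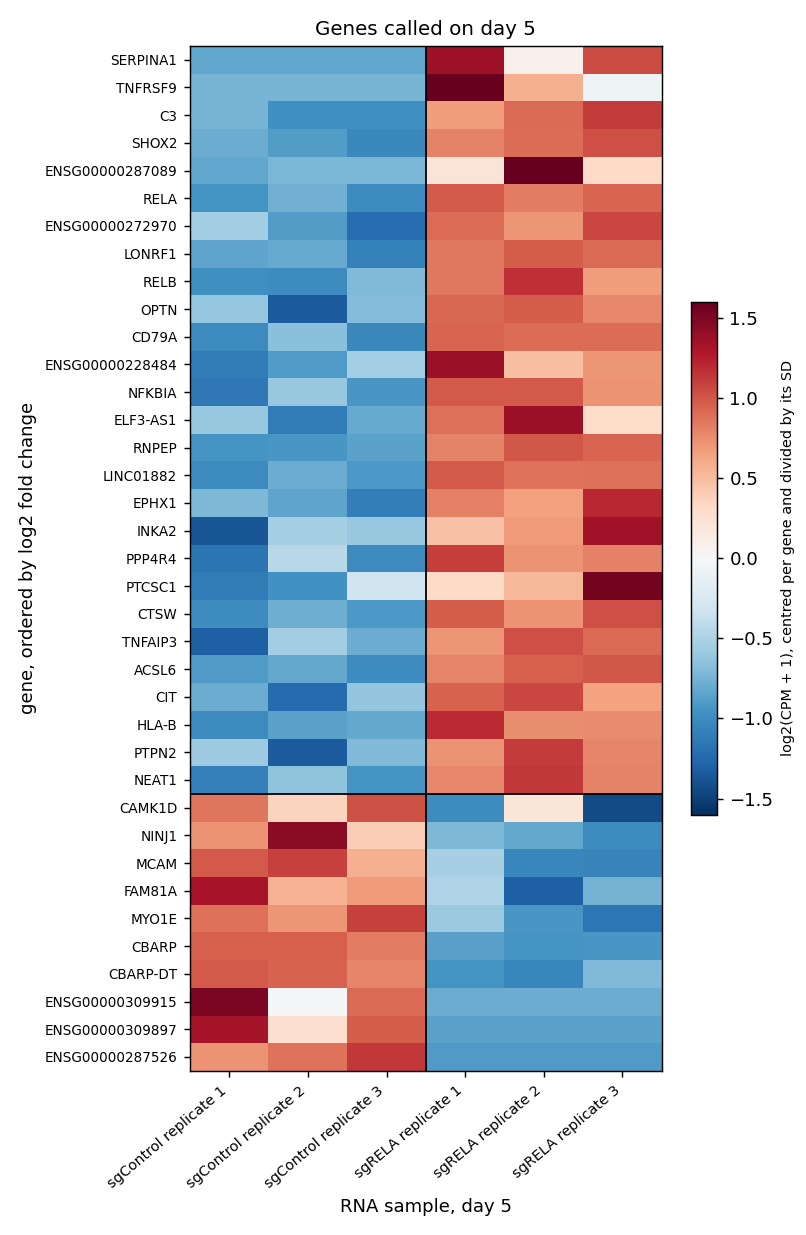
Called genes (37 rows, ordered by log2 fold change) in the 6 RNA samples of day 5 (columns), as log2(CPM + 1) centred per gene and divided by its SD. The 27 genes above the black line are higher in all 3 sgRELA samples and the 10 below it lower, and single samples such as sgRELA replicate 1 in TNFRSF9 stand out within a guide.

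Called genes that rose also lay near each other on chromosomes 1, 18 and 14. On chromosome 1, RNPEP, which encodes an aminopeptidase, and ELF3-AS1 overlap on opposite strands. RNPEP had 37.0, 37.3 and 38.7 CPM in sgControl and 92.0, 102.0 and 98.6 CPM in sgRELA, with no overlap and a log2 difference of 1.37 ± 0.12 (adjusted p = 3.36e-09). ELF3-AS1 differed by 1.41 ± 0.26 (adjusted p = 0.0093), and its p rose to 0.13 at most without sgControl replicate 2 or 3 or sgRELA replicate 2. The strand setting of the counts is not given in the sources used here, so reads of these 2 genes cannot be told apart where they overlap. On chromosome 18, the long non-coding RNA gene LINC01882 lies 9.34 kb from PTPN2, which encodes a tyrosine phosphatase that acts on JAK and STAT proteins. LINC01882 had 55.6, 62.4 and 58.6 CPM in sgControl and 155.2, 145.7 and 147.0 CPM in sgRELA, apart in every sample, and differed by 1.34 ± 0.09 on the log2 scale (adjusted p = 1.10e-11). PTPN2 was at 0.50 ± 0.09 (adjusted p = 0.0077), and its p rose to 0.108 at most without sgControl replicate 2 or sgRELA replicate 2. On chromosome 14, SERPINA1 lies 97 kb from PPP4R4, a regulatory subunit gene of protein phosphatase 4, which was at 1.09 ± 0.20 (adjusted p = 0.0067). The call of PPP4R4 was lost without sgControl replicate 1 or 3 or sgRELA replicate 1, with adjusted p up to 0.108.

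Around RELA itself, 27 genes within 250 kb were tested and 2 were called, both higher, beside 0.102% of all tested genes called higher. CTSW, which encodes the lysosomal protease cathepsin W, lies 217 kb away and had 55.5, 59.4 and 57.0 CPM in sgControl and 100.1, 92.9 and 101.9 CPM in sgRELA. Its groups did not overlap, and the log2 fold change was 0.78 ± 0.12 (SE, adjusted p = 5.57e-04). NEAT1, the long non-coding RNA that scaffolds nuclear paraspeckles, lies 208 kb away on the other side, with 2256, 2399 and 2301 CPM in sgControl and 2922, 3073 and 2934 CPM in sgRELA. NEAT1 was higher in each sgRELA sample by 0.36 ± 0.06 on the log2 scale (adjusted p = 0.0027). The median of the 27 genes was 0.04, and 18 lay above 0. RELA-DT, the divergent transcript at the RELA start, was at 1.11 ± 0.31 with an adjusted p of 0.375, and was chosen after its values were seen.

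Genes lower in sgRELA were led by a divergent pair on chromosome 19. CBARP (chr19:1228287-1238027, minus strand), which encodes a regulator of voltage-gated calcium channels, had 51.0, 51.2 and 40.1 CPM in sgControl. In the sgRELA samples it had 1.70, 1.40 and 1.44 CPM. CBARP fell by 4.97 ± 0.32 on the log2 scale, the mean of sgControl being 31.3 times that of sgRELA, with an adjusted p of 1.01e-11. CBARP-DT (chr19:1238179-1239522, plus strand), a non-coding transcript that starts 0.152 kb away in the other direction, had 26.6, 25 and 19.0 CPM in sgControl and 0.32, 0.16 and 0.96 CPM in sgRELA. CBARP-DT fell by 5.55 ± 0.40 (adjusted p = 1.01e-10), again with no overlap between guides. The gap between the 2 starts lies inside the CBARP stretch printed above. Of 29 tested genes within 250 kb of CBARP, CBARP-DT was the 1 called (0.0363% of all tested genes were called lower), 25 lay below 0 and the median was -0.15.

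A pair on chromosome 15 was lower as well. MYO1E, which encodes a class I myosin of the cell cortex, had 48.9, 44.1 and 55.6 CPM in sgControl and 20.0, 16.2 and 14 CPM in sgRELA. Every sgRELA sample was below every sgControl sample, and the log2 fold change was -1.57 ± 0.16 (SE, adjusted p = 1.51e-07). FAM81A, whose annotated span overlaps that of MYO1E on the opposite strand, had 13.7, 8.91 and 9.58 CPM in sgControl and 4.78, 2.80 and 4.06 CPM in sgRELA. FAM81A was at -1.47 ± 0.28 (adjusted p = 0.010), and the call was lost, with adjusted p up to 0.147, without sgControl replicate 1 or sgRELA replicate 2 or 3. Reads shared by the overlap could be counted for either gene.

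MCAM, NINJ1 and CAMK1D were also lower. MCAM, the gene of the adhesion molecule CD146, had 39.8, 41.9 and 32.8 CPM in sgControl and 19.4, 15.2 and 14.9 CPM in sgRELA. MCAM fell in every sample, by 1.21 ± 0.19 on the log2 scale (adjusted p = 5.57e-04). NINJ1, whose product ninjurin 1 takes part in the rupture of the plasma membrane of dying cells, had 24.7, 33.6 and 21.5 CPM in sgControl and 13.3, 12.7 and 11.6 CPM in sgRELA. NINJ1 was at -1.08 ± 0.20 (adjusted p = 0.0093), and its p rose to 0.186 at most without sgControl replicate 2 or sgRELA replicate 2 or 3. CAMK1D, a calcium/calmodulin-dependent kinase gene, had 90.7, 77.4 and 95.5 CPM in sgControl and 50.2, 73.5 and 43.9 CPM in sgRELA. The sgRELA sample of replicate 2 lay close to sgControl, and CAMK1D was at -0.65 ± 0.14 with an adjusted p of 0.049. Its call was lost, with adjusted p up to 0.462, without sgControl replicate 1 or 3 or sgRELA replicate 1 or 3.

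The other 3 lower genes have no symbol in the tables used, and all were at 0 in sgRELA. ENSG00000287526 had 6.80, 8.41 and 12.2 CPM in sgControl, 621 counts in all, and 0 counts in sgRELA. It was at least 240-fold lower in sgRELA when a floor of 3 counts over that group is used (adjusted p = 5.18e-10). ENSG00000309897 had 236 counts against 0, at least 91.3-fold lower (adjusted p = 1.69e-04), from 5.22, 1.55 and 3.58 CPM in sgControl. ENSG00000309915 had 78 counts against 0, at least 30.2-fold lower (adjusted p = 0.016), from 1.84, 0.41 and 1.17 CPM. The last call was lost, with adjusted p up to 0.0965, without sgControl replicate 1 or any of the sgRELA replicates. These floors, and the interval given below for ENSG00000287089, cover the counting of reads only and no spread between samples. No molecular identifiers are mentioned, so reads are not counts of molecules.

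The remaining called genes were all higher in sgRELA, and 3 of them are described with the later days. ACSL6, an acyl-CoA synthetase gene, was at 0.65 ± 0.13, and its adjusted p of 0.028 rose to between 0.0798 and 0.17 when any 1 RNA sample was left out. ENSG00000228484 was at 1.48 ± 0.30 (adjusted p = 0.024), and without sgControl replicate 1 or 2 or sgRELA replicate 1 that p reached 0.293. ENSG00000287089 had 2 counts in sgControl and 92 in sgRELA, a ratio of 39.6 with a 95% interval for the counting of reads of 10.7 to 332. Most of its sgRELA counts came from replicate 2, at 2.28 CPM against 0.61 and 0.69, and its call was lost without that sample or without any of the sgControl samples, with adjusted p up to 0.207. The low sgControl count was not seen on the later days. ENSG00000287089 had 70 counts in sgControl and 92 in sgRELA on day 6, and 53 and 104 on day 7. Its log2 fold change was 0.34 ± 0.75 on day 6 and 0.96 ± 0.76 on day 7, called on neither.

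The lists fixed for other programmes held no gene called by the edgeR test on day 5, beside 0.138% of all tested genes called. At that share most lists of this size would hold none, so nothing is read from it. For 45 tested of 47 interferon-stimulated genes the median was 0.10 with 33 above 0, and DTX3L had the smallest p, at 0.43 ± 0.11 (adjusted p = 0.187). Among 26 immediate early genes of the AP-1 and EGR kind, 9 lay above 0 with a median of -0.12, and FOSL1 was at -2.01 ± 0.82 (adjusted p = 0.751). The 16 BCL2 family genes, which set the threshold for apoptosis, had a median of -0.03, with PMAIP1 at 0.68 ± 0.19 (adjusted p = 0.428). For 23 p53 targets and DNA damage genes the median was 0.11, with BTG2 at 0.69 ± 0.18 (adjusted p = 0.239). DTX3L was called by DESeq2 (adjusted p = 0.0235), and BTG2 with no filter on low counts (0.0036), with voom (0.0457) and without sgControl replicate 2 (0.0045). None of these medians came with a test, and each is read only beside the median of all genes, -0.0025.

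T-cell identity genes did not pass the test either, again beside 0.138% of all tested genes called. The 32 genes of the T-cell receptor complex and its signalling had a median of 0.03, with CD4 at 0.46 ± 0.19 (adjusted p = 0.751). Of 20 T-lineage leukaemia transcription factors, 7 lay above 0 with a median of -0.09, and RUNX3 was at 1.06 ± 0.24 (adjusted p = 0.0904), a gene that DESeq2 (0.0171), voom (0.0067), the fit with no filter on low counts (5.09e-04) and the second libraries alone (0.0479) called. Cell cycle lists leaned below 0 without a called member: 17 of 26 G1/S and replication genes (median -0.05, TYMS at -0.29 ± 0.12) and 19 of 25 G2/M and mitosis genes (median -0.07, CDC20 at -0.35 ± 0.11). Heat shock chaperones had a median of -0.02 over 20 genes, with HSPA2 at 1.33 ± 0.83. Of 24 genes of the unfolded protein and ATF4 responses, 18 lay above 0 with a median of 0.12, and TRIB3 was at 0.28 ± 0.15. A p that misses the threshold does not show that a gene was equal between the guides.

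**Figure D4:**
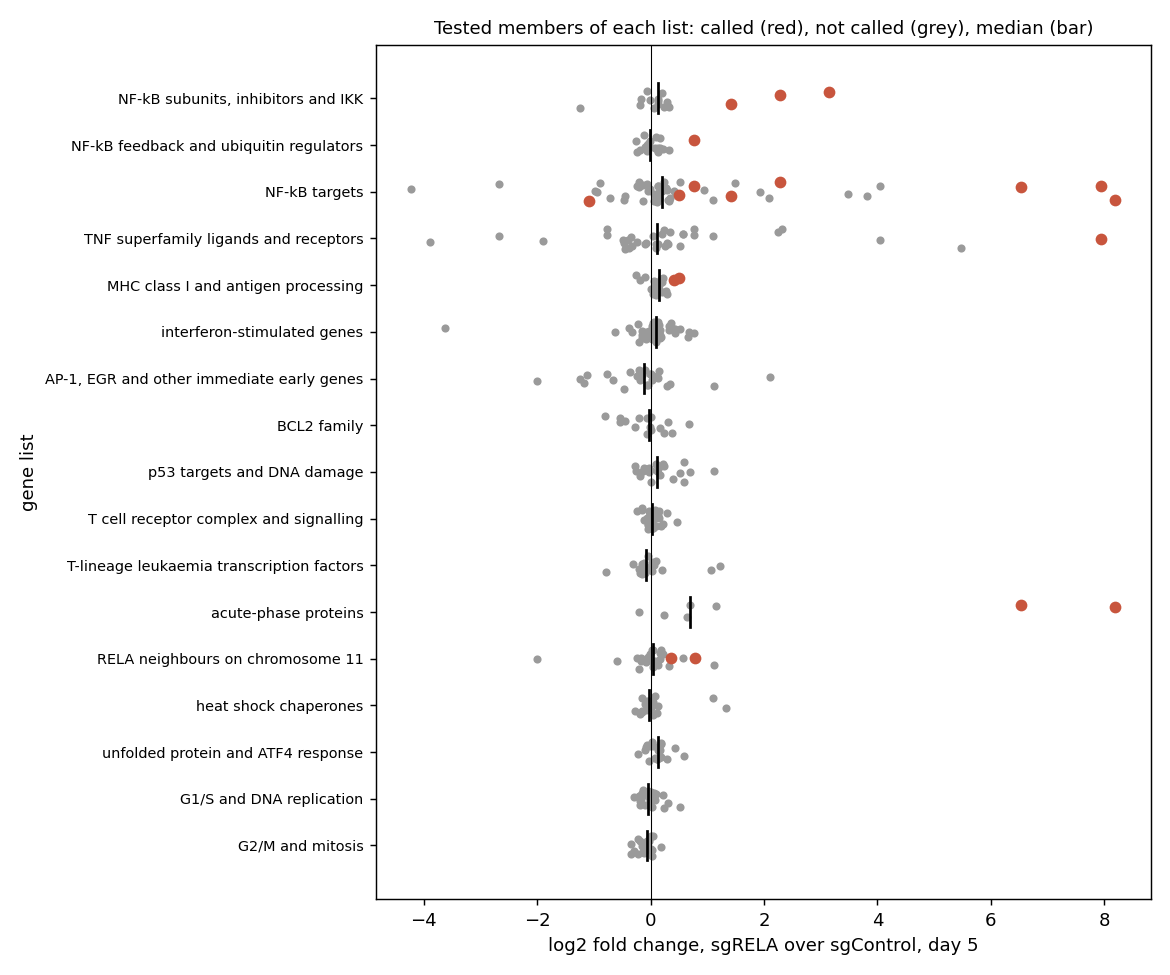
Log2 fold change on day 5 (horizontal axis) of every tested member of 17 gene lists (rows), called members in red, others in grey, and the list's median as a bar. Called genes lie in the NF-kB, TNF superfamily, MHC class I, acute-phase and RELA neighbour lists, and the medians of the other lists lie between -0.12 and 0.12. The points near 8 are SERPINA1 and TNFRSF9, which had no count in sgControl and whose fitted values give no size.

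Days 6 and 7 used their own libraries of both guides, so they can be set beside day 5. Whether the same transduced cultures were harvested on all days was not established here. The fit took no pairing between days, and such a pairing was not tested. Of the 38 genes, 29 were also called on day 6 and 19 on day 7, 18 of them on both days, and 8 on neither. Among all 27553 tested genes, 59 were called on day 6 and 25 on day 7. The sign was the same as on day 5 in 36 of the 38 genes on day 6 and in 36 on day 7. The share of all tested genes that kept their sign is not given here, so nothing is read from these counts of signs. RELA was at 3.14 ± 0.14 on day 5, 3.07 ± 0.14 on day 6 and 2.36 ± 0.14 on day 7 (log2 fold change ± SE). The difference between day 5 and the mean of the later days was 0.43 ± 0.16 for RELA, with an unadjusted p of 0.0123 and an adjusted p of 1.00, so a stronger induction on day 5 did not pass over all genes tested. Taken singly, day 5 minus day 6 was 0.07 ± 0.19 for RELA (unadjusted p = 0.703 by edgeR). Its day 5 minus day 7 was 0.78 ± 0.18 (unadjusted p = 2.1e-04 and adjusted p = 0.741 by edgeR). Day 5 was taken up as the harvest where RELA induction was strongest, so these p-values for RELA are given as a description. NFKBIA was at 1.42, 1.31 and 0.84 on the 3 days, and TNFAIP3 at 0.77, 0.85 and 0.77.

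No gene was called for a guide effect that differed between day 5 and the mean of days 6 and 7. The smallest adjusted p by edgeR was 0.332, 1314 genes (4.77%) had an unadjusted p under 0.05, and DESeq2 called 1 gene. Among the 38 genes, 8 had such a p, but they were chosen on day 5, which enters the difference, and nothing is read from that share. The 3 genes with the smallest p were INKA2, PTCSC1 and ENSG00000272970. INKA2, which encodes an inhibitor of PAK kinases, had a log2 fold change of 1.27 ± 0.26 on day 5, -0.59 ± 0.26 on day 6 and -0.23 ± 0.26 on day 7, a difference of 1.68 ± 0.32 (unadjusted p = 1.2e-05). The non-coding PTCSC1 was at 1.06 ± 0.23, 0.12 ± 0.22 and -0.57 ± 0.22, and ENSG00000272970 at 2.47 ± 0.44, -0.03 ± 0.40 and 0.27 ± 0.43. The day 5 calls of these genes were also unsteady. INKA2 lost its call in 5 of 6 fits that left out 1 RNA sample (all but sgRELA replicate 1), with adjusted p up to 0.39. PTCSC1 lost it without sgControl replicate 1 or 2 or sgRELA replicate 2 or 3, with adjusted p up to 0.547, and ENSG00000272970 without sgControl replicate 3, at 0.083.

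**Figure D5:**
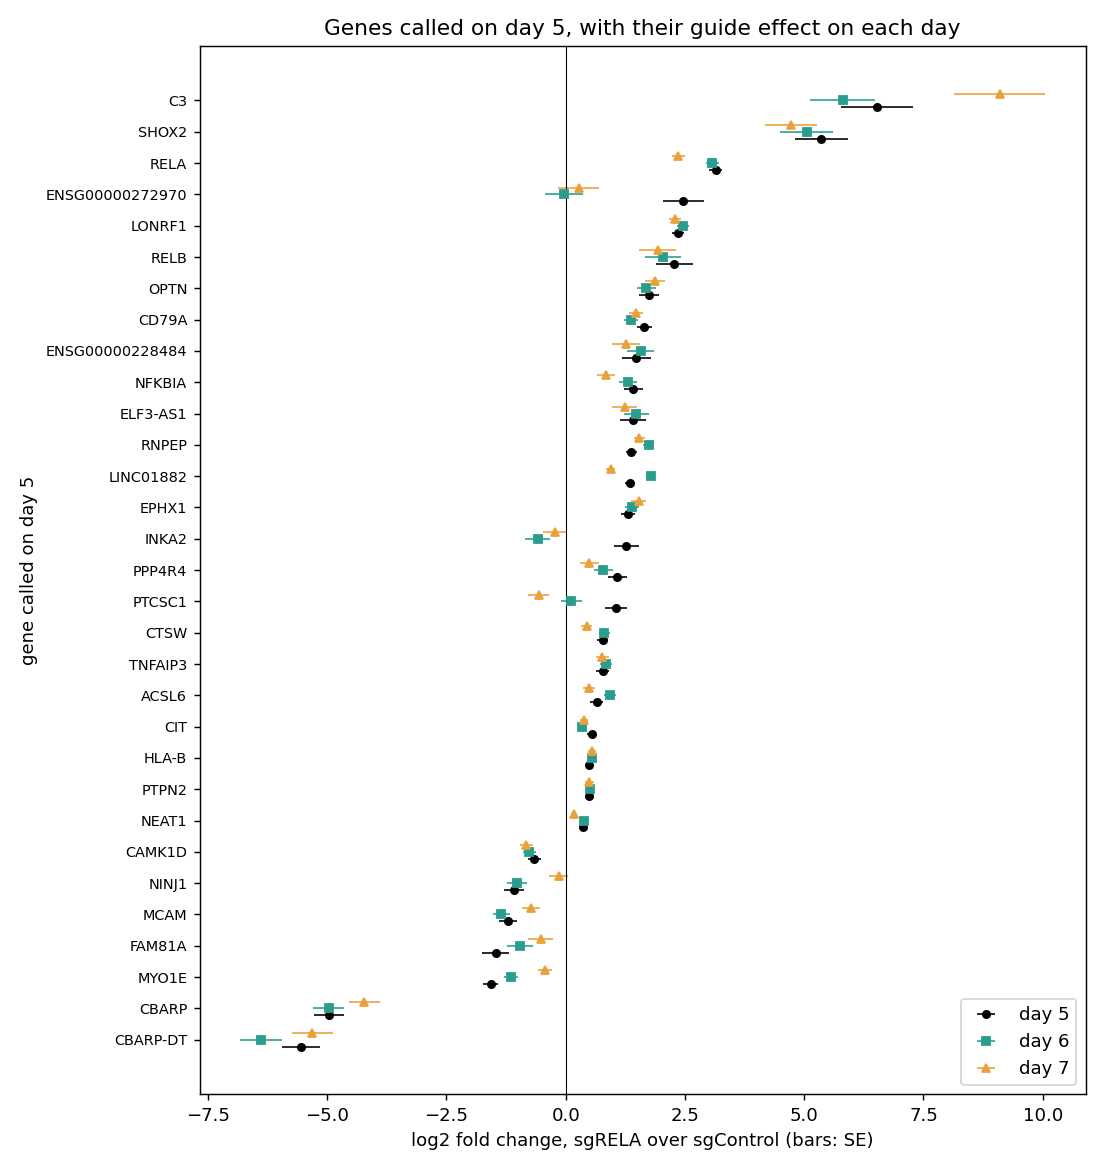
Log2 fold change of sgRELA over sgControl with its SE (horizontal axis) on day 5 (black circles), day 6 (green squares) and day 7 (yellow triangles) for 31 genes called on day 5 (rows). Genes at 0 or nearly 0 counts in a day 5 group (6 genes) were left out, and C3 on day 7 rests on 1 sgControl count. Most genes keep their sign on all days, while INKA2, PTCSC1 and ENSG00000272970 are near or across 0 on days 6 and 7.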

How the data were processed

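The authors deposited 1 table of raw read counts per gene, with 74628 Ensembl genes in rows and the 36 libraries in columns. Per the submitters' processing notes, cutadapt 1.18, STAR 2.7.9a and GRCh38 were used. The counting tool, annotation release, strand setting and treatment of reads with several matches are not given in the sources used here. Columns were assigned by the names in the labels. The 2 libraries of each RNA were added to 18 sums. These were fitted with 1 mean for each of 6 groups of guide and day in edgeR 4.0.16 (R 4.3.3; TMM, filterByExpr with a minimum count of 10, quasi-likelihood F test, Benjamini-Hochberg over 27553 genes). SEs came from the F statistic. The day 5 effect was also tested against the mean of days 6 and 7. Alternatives used DESeq2 1.42.0 and limma 3.58.1 (voom), other size factors, filters, libraries and samples. The method was tested on simulated counts.

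Symbols came from a table that matched 57693 identifiers, and positions came from GENCODE v29 or RefSeq GRCh38.p14. The members and lists were chosen with earlier results of these data known. Named were RELA, up to 15 higher and 10 lower called genes by smallest p with values in every RNA sample, further called genes with their log2 fold change, the tested NF-kB subunit and inhibitor genes, the called member or the smallest p of each other list, and the 3 smallest p between days. A called gene and a marker gene are not reported here. Same-numbered RNA samples of the guides did not deviate together across 15486 genes (Pearson r of 0.0046, -0.0041 and 0.0072), so the numbers were not taken to pair them. Between RNA samples of a guide the coefficient of variation was 19.6% once both libraries were added, and between the 2 libraries of one RNA it was 29.1%. How much of the spread between RNA samples came from the libraries and how much from the cultures was not tested.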

Additional observations from a re-analysis of the deposited data

How the results depend on the processing

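RELA was called in every alternative, with log2 fold changes from 3.06 to 3.28. The count of 38 day 5 calls became 72 with DESeq2 (49 higher, 23 lower) and 68 with no filter on low counts (47 higher, 21 lower), and both held all 38. It was 15 with the first libraries alone and 22 with the second. Leaving out 1 RNA sample gave 31 to 33 calls. With DESeq2's size factors it was 36, with a minimum count of 50 it was 39, with the 6 day 5 sums fitted alone 30, with voom 42, and without the library of fewest detected genes (sgControl replicate 2, library 1) 36. PTCSC1 and CAMK1D were among the calls lost in that last fit. With the replicate number as a replicate block 37 genes were called, 34 of them among the 38, and TNFRSF9, ACSL6 and ENSG00000309915 were among those that lost their call. Of the 38, 23 kept their call in all 6 fits that left out a sample, and no called gene changed sign in any alternative. RELA, RNPEP, EPHX1, SHOX2, LONRF1, OPTN, NFKBIA, MYO1E, LINC01882, CBARP, CBARP-DT, C3, ENSG00000287526 and CD79A kept it in all 16 alternatives. The 0 genes called between day 5 and the later days became 1 with DESeq2 (INKA2) and 7 with no filter on low counts. Without 1 RNA sample the count was 0 to 1, the 1 being LRRC66 without sgControl replicate 2. The cause of these differences was not tested. Each library began from 100 pg of RNA. ACSL6 lost its call in 11 of 16 alternatives, CAMK1D in 9 and TNFRSF9 in 8 of 15.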

Other observations

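SESN3, PDLIM2 and RUNX3 lay just short of the threshold and are given here as values, chosen after those were seen. PDLIM2, which encodes an adaptor protein linked to the breakdown of nuclear p65, had 16.1, 18.9 and 12.1 CPM in sgControl and 38.1, 30.1 and 27.5 CPM in sgRELA on day 5. PDLIM2 samples of the guides did not overlap, and the log2 fold change was 1.02 ± 0.23 (SE) with an adjusted p of 0.066 by edgeR, or 0.0113 by DESeq2. SESN3, a sestrin gene of the FOXO stress response, had 128.5, 125.9 and 137.6 CPM in sgControl and 175.4, 153.8 and 207.4 CPM in sgRELA. SESN3 was at 0.45 ± 0.10 (adjusted p = 0.0641) on day 5, with 0.56 on day 6 (adjusted p = 0.0046) and 0.45 on day 7 (adjusted p = 0.0817). RUNX3, a transcription factor gene of the T lineage, had 16.1, 9.51 and 13.3 CPM in sgControl and 21.6, 33.2 and 26.6 CPM in sgRELA. RUNX3 was at 1.06 ± 0.24 on day 5 (adjusted p = 0.0904 by edgeR and 0.0171 by DESeq2), 1.07 on day 6 and 0.95 on day 7.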
